A study of Mus musculus with 2 samples.

Results

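The miR-15 and miR-16 family was followed through 5 miRNA genes, Mir15a, Mir15b, Mir16-1, Mir16-2 and Mir322, of 1174 miRNA hairpin genes in the reference. The genes were taken by name, and a read was counted for one of them if it matched that hairpin exactly. All 5 hairpins had reads, on 9 mature arms. The RNA came from J1, a mouse embryonic stem cell line of strain 129S4/SvJae that had been adapted to gelatin, without feeder cells, in medium with 1000 U/mL of the cytokine LIF. Cells were kept for 6 h with the solvent DMSO or with 1 µM SC1, also called pluripotin, whose known targets are ERK1 and RasGAP. The stated aim was to find miRNAs regulated by SC1, and each condition had 1 library, so no value below has a replicate error and no test was made.

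miR-15 and miR-16 are known as brakes on the cell cycle. A miRNA is cut from a hairpin as a duplex of a 5p and a 3p arm, 1 of which is usually kept to guide silencing while the other, the star arm, is degraded. Targets are recognised mainly through the seed, bases 2 to 8, and the seed of this family is known to pair with messages of G1 regulators such as cyclin D1, CDK6 and cyclin E1, and of the survival factor BCL2. The genes lie in pairs: 1 locus makes miR-15a and miR-16, the other makes miR-15b and miR-16, and Mir322 lies in a separate cluster on the X chromosome.

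The mature sequences below are those of RefSeq on GRCm38.p6, with the seed in capitals. They are shown because the 5p arms share their seed and differ behind it, while the 3p arms carry other seeds.
miR-15a-5p: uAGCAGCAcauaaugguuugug
miR-15b-5p: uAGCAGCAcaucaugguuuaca
miR-16-5p: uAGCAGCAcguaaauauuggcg
miR-322-5p: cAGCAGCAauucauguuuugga
miR-503-5p: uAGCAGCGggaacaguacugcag
miR-15a-3p: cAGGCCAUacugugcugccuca
miR-15b-3p: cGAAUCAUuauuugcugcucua
miR-16-1-3p: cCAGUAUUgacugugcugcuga
miR-16-2-3p: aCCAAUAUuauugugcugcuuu
miR-322-3p: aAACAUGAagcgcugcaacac
Compared position by position, miR-15a-5p and miR-15b-5p had 18 of 22 bases in common, and miR-16-5p and miR-322-5p had 12. miR-503-5p, from the cluster of Mir322, is shown for comparison. It is not a member, and its seed differs from the family seed only in base 8.

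Mir15a (chromosome 14 of GRCm38, 61632027 to 61632110, minus strand) lies in an intron of Dleu2, a long noncoding RNA gene. Mir16-1 (61631880 to 61631972) lies 54 nt further along in the same gene, where it overlaps an annotated Dleu2 exon. The other pair, Mir15b (chromosome 3, 69009772 to 69009835, plus strand) and Mir16-2 (69009902 to 69009996), is 66 nt apart in an intron of Smc4, which codes for a condensin subunit. Mir322 (X chromosome, 53054255 to 53054349, minus strand) overlapped no annotated gene other than miRNA genes. All of these coordinates are those of GRCm38.

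The file of the DMSO library listed 18870345 reads of 18 to 44 nt, and that of the SC1 library 1275599 reads of 3 to 17 nt. The lists shared 0 tags, a tag being 1 distinct sequence with its count. No miRNA could therefore be compared between DMSO and SC1, and levels below are those of the DMSO library unless SC1 is named. Reads of 18 to 26 nt on mature miRNAs came to 1938808, 10.3% of the DMSO list, and levels are given as RPM, reads per 1000000 of these. Brackets hold exact 95% binomial intervals, which cover counting error only. The embryonic stem cell list (the miR-290-295 and miR-302 clusters, pooled) took 30.8% of mature miRNA reads. The fibroblast list took 0.0906% and the blood list 0.0145%. Of the stem cell list, Mir290a, Mir291a, Mir293, Mir294 and Mir295 were among the hairpins with 100 reads or more over both arms. No hairpin of the miR-302 cluster was among them.

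The family took 9006 reads, 4645 RPM (4550 to 4742), or 0.465% of mature miRNA reads. In all, 9016 reads of 18 to 26 nt matched the 5 hairpins, so that nearly all lay on the mature arms, and 0 matching reads were longer than 26 nt. None of the 75 family tags matched a transcript of another kind, or a mature miRNA outside the family.

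miR-16-5p led the family with 5319 reads, 2743 RPM (2670 to 2818), which was 59.1% of the family's reads (58.0 to 60.1). It ranked 48 of 800 mature miRNAs with reads, whose median was 8.12 RPM. Its nearest neighbours in level were miR-29a-3p at 2968 RPM, miR-382-3p at 2954 RPM and miR-92b-3p at 2803 RPM above it, and miR-92a-2-5p at 2722 RPM, miR-23a-3p at 2488 RPM and miR-130b-3p at 2453 RPM below it. Of these 6, miR-92b-3p and miR-92a-2-5p had counting intervals that overlapped that of miR-16-5p.

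miR-15b-5p followed with 1540 reads, 794 RPM (755 to 835). miR-322-3p, the partner of the arm with the family seed, had 882 reads, 455 RPM (425 to 486). miR-15a-5p had 532 reads, 274 RPM (252 to 299). The star arm miR-16-1-3p had 483 reads, 249 RPM (227 to 272), and its interval overlapped that of miR-15a-5p. The remaining arms were low. miR-15b-3p had 107 reads at 55.2 RPM (45.2 to 66.7), miR-322-5p 76 reads at 39.2 RPM (30.9 to 49.1), miR-16-2-3p 50 reads at 25.8 RPM (19.1 to 34.0) and miR-15a-3p 17 reads at 8.77 RPM (5.11 to 14.0). Among these, the intervals of miR-322-5p overlapped those of both its neighbours in the order, and miR-15a-3p stood below the others.

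**Figure D1:**
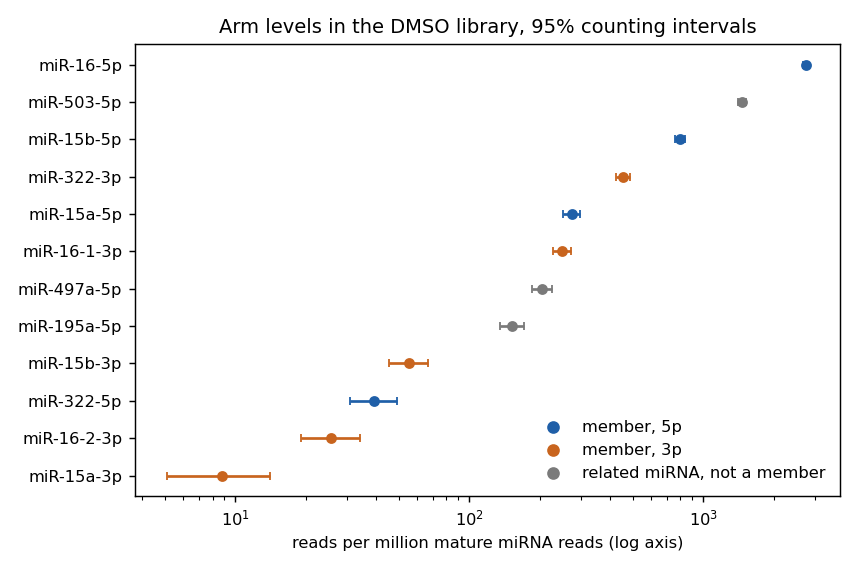
Level of each member arm and of 3 related miRNAs in the DMSO library, in RPM on a log axis; points are single-library values and bars are 95% counting intervals. miR-16-5p stands highest at 2743 RPM, and miR-322-5p lies far to the left of miR-322-3p.

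Other miRNAs with this seed had lower levels than the 5p arms of miR-15 and miR-16, but those with the most reads stood above miR-322-5p. RefSeq held 10 mature miRNAs with the seed, of which miR-497a-5p had 397 reads, 205 RPM (185 to 226), and miR-195a-5p 296 reads, 153 RPM (136 to 171). miR-195b had 0 reads, which allows up to 1.55 RPM. By the first bases of the reads themselves, 8138 reads carried the seed, 0.42% of mature miRNA reads. miR-16-5p supplied 65.0% of them (64.0 to 66.1), miR-15b-5p 18.9% (18.1 to 19.8) and miR-15a-5p 6.51% (5.99 to 7.07). The other members' part was small, since miR-322-5p gave 0.885% (0.693 to 1.11), less than miR-497a-5p at 4.64% or miR-195a-5p at 3.64%. The 4 member 5p arms together made up 91.3% (90.7 to 91.9). A further 31 reads with this seed were miR-103-3p or miR-107-3p that started upstream of their annotated end.

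Mir322 read mostly from its 3p arm, and the other members from their 5p arm. The 5p share was 96.9% (95.1 to 98.2) for Mir15a, 93.5% (92.2 to 94.6) for Mir15b and 90.9% (90.1 to 91.6) for both Mir16 genes together, whose 5p arms are identical. For Mir322 it was 7.93% (6.30 to 9.83), so that 3p reads outnumbered 5p reads 11.6 times (9.17 to 14.9). The 3p arm of Mir322 does not hold the family seed. Among 194 hairpins with 100 reads or more over both arms, which include Mir15a, Mir15b and Mir322, the median 5p share was 74.4%, and 89 hairpins had more 3p than 5p reads. A lower 5p share than that of Mir322 was found in 56 of them.

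**Figure D2:**
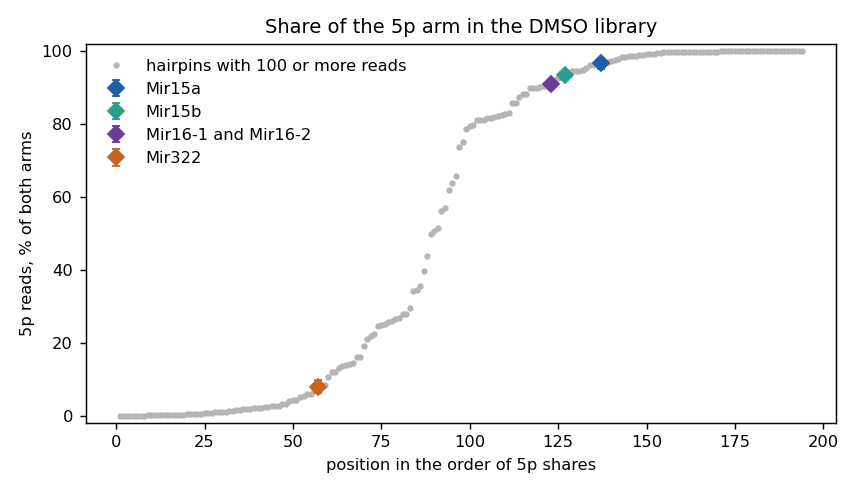
Reads of the 5p arm as a percentage of both arms in the DMSO library, with hairpins of 100 or more reads placed in rising order (grey points) and the members as diamonds with 95% counting intervals. Mir15a, Mir15b and the Mir16 genes lie above 90%, and Mir322 lies at 7.93%.

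The hairpin of Mir322, from RefSeq with both mature arms in capitals, shows where these reads come from.
Mir322 hairpin: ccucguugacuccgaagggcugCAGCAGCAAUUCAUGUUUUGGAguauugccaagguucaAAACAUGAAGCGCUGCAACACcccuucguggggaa
The first capitals are miR-322-5p, with the family seed, and the last are miR-322-3p, which gave 882 of the 958 reads.

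The genes beside Mir322 on the X chromosome did not share 1 preferred arm. Mir503 had 2848 reads of its 5p arm, 1469 RPM (1416 to 1524), and 2 reads of its 3p arm. miR-503-5p thus had 37.5 times (29.8 to 47.7) the reads of miR-322-5p and 3.23 times (2.99 to 3.49) those of miR-322-3p. Mir450b had 4 reads of 5p and 153 of 3p, and Mir351 had 33 of 5p and 85 of 3p. Mir542 had 52 of 5p and 94 of 3p. miR-450a-5p, from Mir450-1 and Mir450-2, had 64 reads, beside 5 of miR-450a-1-3p and 1 of miR-450a-2-3p. Mir195a and Mir497, outside this cluster but with the family seed, had 296 and 397 reads of 5p beside 0 and 1 of 3p.

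The 2 loci could be compared through their miR-15 arms and their miR-16 star arms, and the order of the loci was not the same for both. miR-15b-5p, from the Smc4 locus, had 1540 reads against 532 of miR-15a-5p from the Dleu2 locus, a ratio of 2.89 (2.62 to 3.20). miR-15b-3p had 107 reads against 17 of miR-15a-3p, so that the Smc4 locus held 86.3% of the 3p reads of miR-15 (79.0 to 91.8). For miR-16 the star arms stood the other way. miR-16-1-3p, from the Dleu2 locus, had 483 reads and miR-16-2-3p, from the Smc4 locus, had 50, a ratio of 9.66 (7.21 to 13.2). The Smc4 locus thus held 74.3% of miR-15 5p reads (72.4 to 76.2) but 9.38% of miR-16 star reads (7.04 to 12.2). Compared position by position, the 2 annotated star arms had 12 of 22 bases in common. They were not aligned, so bases shifted by 1 position count as different. How much of each arm was kept in the cell or captured was not measured. These are therefore shares of reads and not of the output of the loci.

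**Figure D3:**
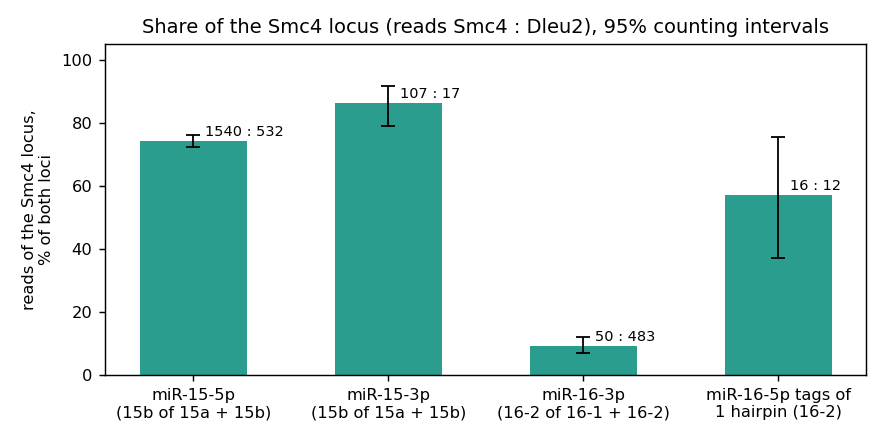
Reads of the Smc4 locus as a percentage of the reads of the Smc4 and Dleu2 loci, for the arms that differ between them, in the DMSO library; bars start at 0, error bars are 95% counting intervals, and the numbers are reads of Smc4 and Dleu2. The miR-16 star arm stands at 9.38%, below the other 3 bars.

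The hairpins of the Mir16 genes, from RefSeq with both mature arms in capitals, show what tells the genes apart. The 5p arm is the same in both, and the 3p arm and the flanks differ.
Mir16-1 hairpin: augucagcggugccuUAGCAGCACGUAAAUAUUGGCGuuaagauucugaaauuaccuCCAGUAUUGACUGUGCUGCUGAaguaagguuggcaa
Mir16-2 hairpin: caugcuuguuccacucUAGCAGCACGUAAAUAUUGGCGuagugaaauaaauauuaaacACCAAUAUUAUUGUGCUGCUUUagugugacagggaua
Of the miR-16-5p reads, 5291 (99.5%) matched both hairpins. Only 28 reads, in 3 tags, reached a flanking base that tells the genes apart. These are, with that base in capitals and written as DNA as in the deposited list:
Mir16-2, 4 reads: Ctagcagcacgtaaatattggcg
Mir16-2, 12 reads: tagcagcacgtaaatattggcgtA
Mir16-1, 12 reads: tagcagcacgtaaatattggcgtT
By these tags Mir16-2 had 16 reads and Mir16-1 had 12, a Mir16-2 share of 57.1% (37.2 to 75.5), against 9.38% by the star arms. The last base of the 24 nt tags could also be an untemplated addition to the common 23 nt form, and this was not tested. Only the tag that starts 1 base early is free of that limit, with 4 reads for Mir16-2 and 0 for Mir16-1.

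The 5p members started at a fixed base. Reads at the annotated start made up 99.9% of miR-15b-5p (99.6 to 100), 99.6% of miR-15a-5p (98.6 to 100) and 99.5% of miR-16-5p (99.3 to 99.7). miR-322-5p was at 94.7% (87.1 to 98.5). The median over 261 mature miRNAs with 100 reads or more was 98.4%, with quartiles of 89.6% and 99.6%.

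miR-322-3p and miR-16-2-3p started elsewhere more often. Of miR-322-3p reads 62.4% (59.1 to 65.6) began at the annotated base, 18.1% (15.7 to 20.8) began 1 base upstream and 19.5% (16.9 to 22.3) began 2 bases upstream. 31 of the 261 miRNAs had a lower share at the annotated start. Each shift moves the seed, shown in capitals in the most abundant tag of each start.
miR-322-3p, annotated start, 406 reads: aAACATGAagcgctgcaacac
miR-322-3p, 1 base upstream, 96 reads: aAAACATGaagcgctgcaaca
miR-322-3p, 2 bases upstream, 149 reads: cAAAACATgaagcgctgcaaca
No other mature miRNA of the RefSeq table had any of these 3 seeds. Starts and ends varied together. Of the 550 reads with the annotated start, 73.8% (69.9 to 77.4) also had the annotated end, whereas of the 172 reads that began 2 bases upstream 86.6% (80.6 to 91.3) ended 1 base short of it. Reads that began 1 base upstream lay between, with 96 of 160 (60.0%) ending 1 base short.

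For miR-16-2-3p the most frequent start was 1 base downstream of the annotated one, with 35 of 50 reads (70.0%, 55.4 to 82.1).
miR-16-2-3p, annotated start, 15 reads: aCCAATATtattgtgctgcttt
miR-16-2-3p, 1 base downstream, 26 reads: cCAATATTattgtgctgcttta
miR-16-1-3p, 279 reads: cCAGTATTgactgtgctgctgaa
The downstream start moves the seed of miR-16-2-3p by 1 base. miR-16-1-3p, the star arm of the other gene, began at its annotated base in 94.2% (91.7 to 96.1) and 1 base upstream in 5.80%.

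**Figure D4:**
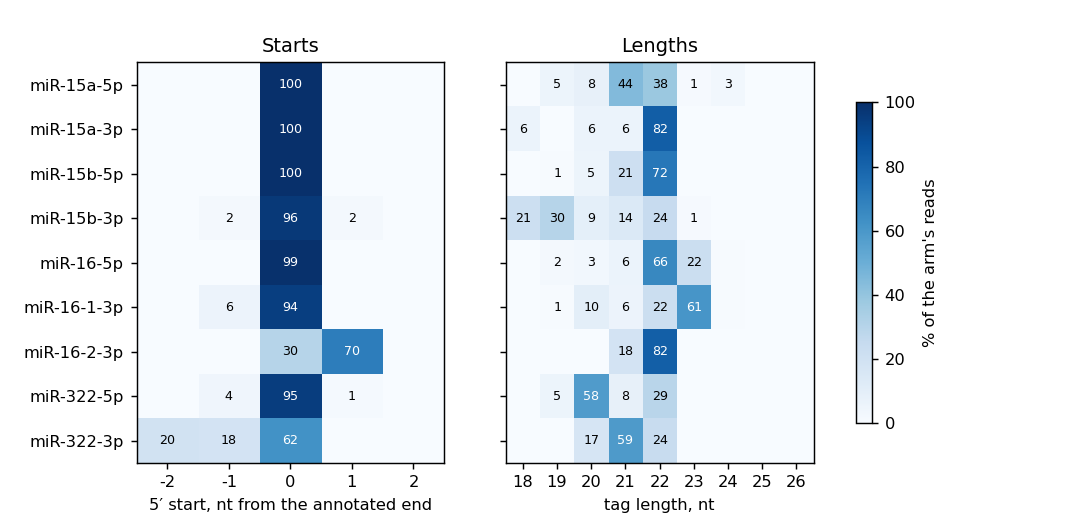
Share of each member arm's DMSO reads by 5′ start relative to the annotated end (left) and by tag length (right), in percent, with shares of 0.5% or more written in the cells. The 5p arms sit in the column of offset 0, whereas miR-322-3p spreads to 2 bases upstream and miR-16-2-3p peaks 1 base downstream.

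Lengths differed between arms with the same start. miR-16-5p was 22 nt in 66.1% of reads (64.8 to 67.4) and 23 nt in 22.1%, and miR-15b-5p was 22 nt in 72.4% (70.1 to 74.6) and 21 nt in 21.2%. miR-15a-5p was shorter, with 44.4% (40.1 to 48.7) at 21 nt and 38.0% at 22 nt. miR-322-5p was most frequent at 20 nt, with 44 of 76 reads (57.9%, 46.0 to 69.1), and had 22 reads at its annotated 22 nt. Of the 261 miRNAs, 114 were most frequent at 22 nt, 47 at 21 nt and 18 at 20 nt.

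The star arms were not alike. miR-15a-3p and miR-16-2-3p mostly had their annotated length of 22 nt, with 82.4% (56.6 to 96.2) and 82.0% (68.6 to 91.4) of their few reads. For miR-16-2-3p, however, 26 of the 22 nt reads were shifted 1 base downstream at both ends and 15 were the annotated form. miR-16-1-3p was 23 nt in 60.9% of reads (56.4 to 65.2), 1 base longer than annotated. miR-15b-3p spread over 18 to 22 nt, with 32 reads at 19 nt, 26 at 22 nt and 23 at 18 nt, the lower edge of the DMSO list. Since shorter DMSO reads were not listed, the true spread of miR-15b-3p could not be seen.

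Tails are bases added to the 3′ end of a miRNA after cutting, and were counted as 1 to 3 last bases that the hairpin does not encode, behind an exact match of 18 nt or more. The family had 514 such reads, 5.40% (4.95 to 5.87) of its exact and tailed reads together. A changed or lost base near the 3′ end can be counted as a tail by this rule. Of the 225 tailed miR-16-5p reads, 23 read like a substitution, and without reads of that kind the family was at 5.09%. Over 272 miRNAs with 100 such reads or more, the median was 7.96%, with quartiles of 3.60% and 16.7%. Single changed bases inside miR-16-5p reads were rarer and averaged 0.0367% per position and reached 0.113% at position 11, counted from 1 at the 5′ end. In the other 4 arms examined, miR-15b-5p, miR-15a-5p, miR-322-3p and miR-16-1-3p, the average was at most 0.0414% per position. The last 3 positions of each tag were left out of these rates, so they do not measure error where tails are called. A tail of 1 nt could not be told from a changed last base.

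Among member arms with over 100 reads, miR-322-3p had the highest tailed share, at 14.8% (12.7 to 17.1), with 153 tailed beside 882 exact reads. Without it the family was at 4.25%. miR-15a-5p was at 8.90% (6.72 to 11.5), whereas its paralog miR-15b-5p was at 1.53% (0.986 to 2.27), and 247 of the 272 miRNAs had a higher share. miR-16-5p was at 4.06% (3.55 to 4.61) and miR-16-1-3p at 3.98% (2.45 to 6.07). The scarce arms had wide intervals, from 11.5 to 32.7% for miR-16-2-3p (13 tailed reads), 5.90 to 17.8% for miR-15b-3p (13) and 10.2 to 48.4% for miR-15a-3p (6). miR-322-5p had 8 tailed reads, 9.52% (4.20 to 17.9), and 2.60% where tags needed 2 reads. With that minimum miR-15b-5p fell to 0.901%. Where tags needed 10 reads, miR-322-3p was at 12.6%, miR-15a-5p at 6.62%, miR-16-5p at 3.05%, miR-16-1-3p at 2.09% and miR-15b-5p at 0.777%. Each of these lay below its interval. miR-16-2-3p, miR-15b-3p, miR-15a-3p and miR-322-5p then had 0 tailed reads.

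The added base differed between the arms. A single A was found in 170 and a single T, read from U in the RNA, in 10 miR-16-5p reads. In miR-322-3p the order was turned, with 39 A and 104 T. miR-15a-5p had 24 A and 21 T, and miR-15b-5p 13 A and 3 T. The most abundant tailed tags are shown with the added base in capitals.
miR-16-5p, 142 reads: tagcagcacgtaaatattggcgA
miR-15a-5p, 21 reads: tagcagcacataatggtttgtgT
miR-15a-5p, 16 reads: tagcagcacataatggtttgtgA
miR-322-3p, 93 reads: aaacatgaagcgctgcaacacT
miR-322-3p, 22 reads: aaacatgaagcgctgcaacaA
Over the member 5p arms A made up 85.4% (80.3 to 89.5) of the single A and T tails, and over the member 3p arms 29.8% (23.3 to 37.1). Each of these pools rested mainly on 1 arm. miR-16-5p gave 170 of the 210 A on 5p arms, and miR-322-3p gave 104 of the 127 T on 3p arms. In the other miRNAs of the library the 5p arms had 71.4% A and the 3p arms 39.1%. A was the more frequent on the 5p arms and T on the 3p arms in both sets, with the star arm miR-16-1-3p, at 10 A and 1 T, as the member 3p arm that did not.

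A tail that repeats the hairpin's next base cannot be seen. Behind miR-16-5p that base is T in both genes, so U tails on its 22 nt form would be counted among the 1172 reads of the 23 nt form. Its count of 10 T is therefore a lower limit, and the same holds for T behind miR-15b-5p, C behind miR-322-3p and G behind miR-15a-5p. The tailed shares of these arms leave out such hidden tails too. Reads of the annotated form plus that base were few in the other arms, 5 for miR-15b-5p, 3 for miR-322-3p and 6 for miR-15a-5p. For miR-16-5p the 1172 reads outnumber its 225 tailed reads, so its tailed share of 4.06% could be far too low. With T hidden behind miR-16-5p and miR-15b-5p, the A share of the 5p arms could be too high. The next base is A behind miR-16-1-3p, where 279 reads had the form longer by that base. A tails on its annotated form are hidden there, so the A share of the 3p arms could be affected. That base is also A behind miR-16-2-3p and miR-15a-3p, but 0 reads of either had the annotated form plus A. In miR-16-2-3p, 26 reads that began 1 base downstream ended with this A.

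**Figure D5:**
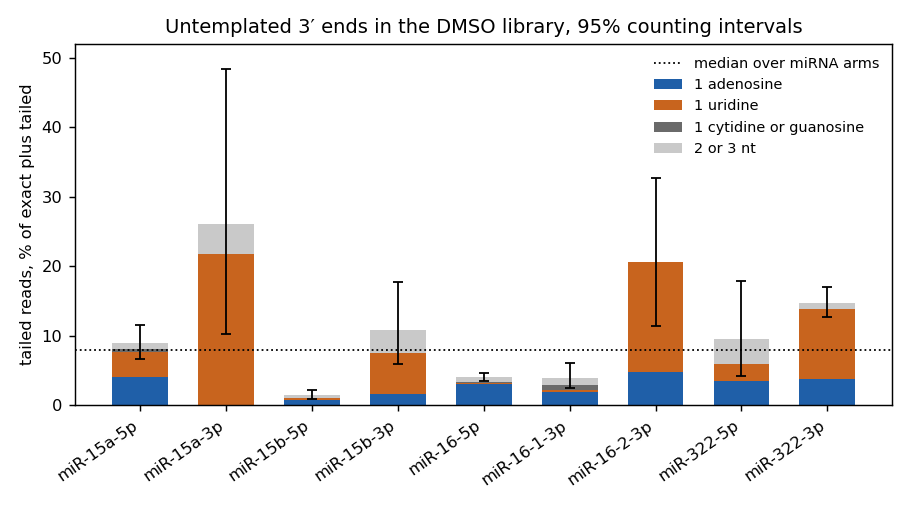
Reads with an untemplated 3′ end as a percentage of exact plus tailed reads for each member arm in the DMSO library, split by the added base; bars start at 0, error bars are 95% counting intervals of the whole bar, and the dotted line is the median of 272 miRNA arms (7.96%). miR-322-3p is mostly uridine and miR-16-5p mostly adenosine, and miR-15b-5p is lowest at 1.53%.

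The SC1 list held few short pieces of these miRNAs. Of 1054495 reads of 15 to 17 nt, 12 began within 2 nt of the start of a member arm, 11.4 per 1000000 (5.88 to 19.9), or 0.023% of the 52083 reads at the starts of all mature miRNAs. They fell into 5 tags, each at the annotated start, shown with the seed in capitals.
miR-16-1-3p, 5 reads: cCAGTATTgactgtgct
miR-16-5p, 3 reads: tAGCAGCAcgtaaat
miR-16-5p, 1 read: tAGCAGCAcgtaaatat
miR-15b-3p, 2 reads: cGAATCATtatttgct
miR-15b-5p, 1 read: tAGCAGCAcatcatgg
None of the tags matched a transcript of another kind, and the reversed tags of the list gave 0 reads on these hairpins. The 3p arms gave 7 of the 12 reads. The other 5 arms, miR-322-5p, miR-322-3p, miR-15a-5p, miR-15a-3p and miR-16-2-3p, had 0 reads, which allows up to 2.84 per 1000000 each. The DMSO reads at 18 nt, the nearest length in the other list, were 11 for miR-16-5p, 0 for miR-16-1-3p, 23 for miR-15b-3p and 2 for miR-15b-5p. These counts lie in lists of different lengths and are no measure of an effect of SC1.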

How the data were processed

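Small RNA was sequenced from J1 cells after DMSO or SC1, 1 library each. The authors deposited raw read counts per distinct tag with the length of each tag, and counts were not normalized. The submitters' processing notes name the build mm9. How reads were trimmed, selected by length and aligned is not given in the sources used here. A line of the DMSO file that holds only the total was left out.

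Tags were matched exactly and in sense to the miRNA hairpins of GENCODE M21 (GRCm38). Of 1738 RefSeq mature entries, 1659 were placed on these hairpins, among them those of all 5 members. Arms received the tags of 18 to 26 nt whose start lay within 2 nt, and whose end lay within 4 nt, of the annotation. Where several names matched, each got an equal part of the reads. SC1 tags of 15 to 17 nt needed only the start. For 0 reads the limit is 3 counts; intervals are Clopper-Pearson at 95%. No molecular identifiers were used, so reads need not be independent molecules.

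The named miRNAs were all member arms, the other miRNAs with the seed, the X chromosome neighbours of Mir322, and the 3 miRNAs nearest to miR-16-5p in level on each side. The members and lists were chosen with earlier results of these data known. Assignment and tail counting were tested on simulated tags. Alternatives changed the minimum reads, tag rules, windows, scaling and arm definition. The scripts ran under Python 3.11.15 with scipy 1.17.1 for intervals, numpy 2.4.6 for arrays and matplotlib 3.10.9 for plots.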

Additional observations from a re-analysis of the deposited data

Results flagged for a closer look

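The 12 short SC1 reads at the starts of member arms lie outside the lengths used for levels, and exceed the limit of 3 counts set for a count of 0. The DMSO list held 0 reads of 15 to 17 nt, so they have no DMSO counterpart.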

How the results depend on the processing

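No paired analysis was possible because there was only 1 library of each kind. The family level, 4645 RPM, was 4827 RPM with tags of 20 to 24 nt, 4784 RPM with only the main start of each arm, 4430 RPM with tailed tags counted too, 477 RPM scaled to all reads of the list, and 16509 per 1000000 by distinct tags. With arms set by their most abundant tag, chosen after seeing the data, it was 4155 RPM. The 5p share of Mir322, 7.93%, was 11.6% with only main starts and 33.3% by distinct tags. The Mir16-2 share of star reads, 9.38%, was 21.4% by distinct tags and 57.1% by the miR-16-5p tags of 1 hairpin. The tailed share, 5.40%, was 4.71% with tails of 1 nt, 4.83% when tags needed 2 reads, 3.79% when they needed 10, and 56.4% by distinct tags. The short SC1 reads, 12, were 6 at 17 nt alone. The 477 RPM value is the same 9006 reads over the 18870345 reads of the list, and values by distinct tags count each tag once. The 4155 RPM value is 9005 family reads over 2167143 mature miRNA reads, against 9006 over 1938808, so it was the total that changed. With only main starts, the Mir322 share was 72 5p reads of 622 arm reads, against 76 of 958. The cause of the other changes was not tested. The other settings for these 5 values stayed within the counting interval. Of 163 values of single arms and shares, 61 left their interval, 27 of them upward and 34 downward. The 163 include levels scaled to all reads and values by distinct tags. The miR-15b part of miR-15 5p reads, 74.3%, ran from 43.8% by distinct tags to 82.6% with only the most abundant tags. Depth limits miR-15a-3p (17 reads), miR-16-2-3p (50) and miR-322-5p (76) most, and the missing lengths under 18 nt limit what can be said of short forms.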

Other observations

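Untemplated 3′ ends were also counted on related miRNAs. The tailed share was 16.6% (12.9 to 20.9) for miR-195a-5p, 12.8% (11.6 to 14.0) for miR-503-5p and 11.2% (8.42 to 14.5) for miR-497a-5p, against 4.06% (3.55 to 4.61) for miR-16-5p and 1.53% (0.986 to 2.27) for miR-15b-5p. The intervals of miR-15a-5p, 6.72 to 11.5%, and miR-322-5p, 4.20 to 17.9%, overlapped that of miR-497a-5p. A single A was the most frequent addition on all 3, with 48 A and 4 T, 267 A and 32 T, and 40 A and 7 T. The tailed shares leave out tails that repeat the hairpin's next base. For miR-16-5p that base is T, and 1172 reads had the annotated form plus T, against 225 tailed reads in all. How many of the 1172 carried an added T was not tested, so 4.06% could be far too low for this comparison. For miR-15b-5p, where the next base is also T, such reads were 5. The tailed shares come from 1 library and were not tested.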
